A study of Homo sapiens with 12 samples.

Results

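The Krüppel-like factors (KLF) are transcription factors with a carboxy-terminal array of zinc fingers that binds GC boxes and CACCC boxes in promoters. The 10 members described here are KLF2, KLF3, KLF4, KLF5, KLF6, KLF7, KLF9, KLF10, KLF11 and KLF13. Their probe sets were those that the platform annotation assigned to one of these symbols and to no other gene, which were 32 of the 54675 probe sets on the array. The cells were SW13, an established human adrenal cortical carcinoma line. They were made into a stable line with the empty plasmid pREP7 (SW13+vector) or into a stable line with pREP7 carrying BRG1 (SW13+BRG1). BRG1, also called SMARCA4, is a catalytic ATPase of SWI/SNF chromatin remodeling complexes. The study describes SW13 cells as lacking BRG1 protein, and the SW13+vector arrays are labelled as cells without BRG1. Both lines were either mock treated or given UV light at 10 J/m2, and all were collected 6 h afterwards, so that every group shares the SW13 parent and the plasmid backbone. Each of the 4 groups, SW13+vector mock, SW13+vector UV, SW13+BRG1 mock and SW13+BRG1 UV, has 3 Affymetrix U133 Plus 2.0 arrays labelled as experiments 1 to 3. The study names 1 stable line of each kind, so the tests between lines measure the spread among arrays within a line, and an effect of BRG1 cannot be told apart from other differences between these lines.

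Within the family, the members fall into groups by what they do to their target promoters. KLF2, KLF4, KLF5, KLF6 and KLF7 mainly activate transcription, although KLF4 can also repress. KLF3 represses by recruiting the corepressor CtBP, whereas KLF9, KLF10, KLF11 and KLF13 carry a short amino-terminal domain that recruits the corepressor SIN3A. Several members are early response genes whose transcripts and proteins turn over quickly, and ubiquitin ligases such as WWP1, FBXW7 and SMURF1 remove the proteins. KLF4 and KLF6 have been described as activators of CDKN1A, the kinase inhibitor p21, and KLF10 and KLF11 as genes induced early by TGF-β. The arrays measure transcripts only, and in a bulk sample fewer expressing cells and less RNA per cell cannot be told apart.

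The values are MAS signals, linear intensities that the authors scaled to a common mean, in arbitrary units. The array medians ran from 21.1 to 25.3. A probe set was tested where its signal reached the median of the array on at least 3 of the 12 arrays. This held for 26 of the 32 KLF probe sets, with at least 1 for each of the 10 genes, and for 32622 probe sets of the whole array. Of these 26, 11 reached the array median on all 12 arrays. The 6 that were not tested were 1 of KLF2 (226646_at), 1 of KLF4 (220266_s_at), 1 of KLF9 (228474_s_at) and 3 of KLF13 (1564463_at, 219878_s_at and 230094_at), and 3 of the 6 stayed below the median on every array. Another 3 probe sets reached the median on arrays of a single line, KLF4 221841_s_at and KLF7 240432_x_at in SW13+BRG1 and KLF9 203541_s_at in SW13+vector, so a difference between the lines was built into their passing. KLF7 238517_at and KLF9 203543_s_at reached it on mock arrays alone, so for them a fall after UV was built in likewise. KLF7 204334_at, 1555420_a_at and 238482_at reached the median on fewer than 3 SW13+vector arrays but on all SW13+BRG1 arrays. They were therefore tested only because their signal was high in SW13+BRG1 cells. A probe set was called where limma gave a Benjamini-Hochberg adjusted p under 0.05 over all tested probe sets and a fold change over 2 (for the difference of UV effects, the adjusted p alone). The words higher, lower, rose and fell are used only for called values. Signals of different probe sets depend on their probes, so levels were compared between groups and never between probe sets.

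Facts of the whole series bear on how these values can be read. The log2 signals correlated at 0.879 to 0.917 within groups and at 0.818 to 0.893 between groups. The transcript of BRG1 itself did not mark the arrays labelled with BRG1: of 7 tested SMARCA4 probe sets, 0 were higher and 1 was lower than in SW13+vector mock arrays, with log2 fold changes from -1.28 to 0.62. After UV 1 was higher (212520_s_at, log2 fold change 2.20, standard error 0.45), and 0 were lower. Whether these probe sets lie in the introduced cDNA was not tested, and the direction of every comparison between the lines was taken from the labels. The study also checked BRG1 protein in these lines by Western blot and used RT-PCR on the same RNA, and those measurements were not analysed here. Of 8 adrenal cortex markers, 7 were on the array, and 0 of them reached the array median on all arrays. Their summed signal was 49.8 to 74.6 in SW13+vector mock, 67.5 to 150.3 in SW13+vector UV, 77.2 to 115.7 in SW13+BRG1 mock and 80.8 to 111.8 in SW13+BRG1 UV, so the steroid-making program that defines the adrenal cortex was near the background. Endothelial markers summed to 52.1 to 145.2 over all arrays, and none of the 6 reached the median on all of them. Only PECAM1 and TEK of these were tested, and PECAM1 reached the median on 11 arrays. TEK reached it on all SW13+vector arrays but on only 1 array of each SW13+BRG1 group. It was therefore tested only because it was high in the vector line. TEK was lower in SW13+BRG1 cells after UV, with a mean of 11.9 against 55.9 with the vector. Of 6 blood cell markers 4 were on the array, with a summed signal of 125.4 to 212.9 on SW13+vector arrays and 45.3 to 95.8 on SW13+BRG1 arrays. Only HBB and PTPRC among them were tested. HBB reached the median on all 12 arrays, and its lines overlapped in both conditions. Its means in SW13+vector and SW13+BRG1 cells were 37.4 and 34.8 without UV and 53.3 and 56.5 after UV. PTPRC ran from 77.3 to 160.0 on SW13+vector arrays and from 1.07 to 12.8 on SW13+BRG1 arrays. The second range is below the array medians, so PTPRC was tested only because it was high in the vector line, and its part in the KLF values was not tested.

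For 5 members with a call, RefSeq gives a single transcription start among the promoters used here, and the 250 bases before that start are printed here to show the sequence classes on which these transcripts begin. The windows are from build GRCh38.p14 and run 5′ to 3′ on the strand of the gene. Capitals mark matches on either strand to the GC box GGGCGG, to the CACCC box and to the MEF2 consensus, the site of the factors through which the kinase ERK5 induces KLF2.
KLF2 upstream, chr19:16324576-16324825, plus strand: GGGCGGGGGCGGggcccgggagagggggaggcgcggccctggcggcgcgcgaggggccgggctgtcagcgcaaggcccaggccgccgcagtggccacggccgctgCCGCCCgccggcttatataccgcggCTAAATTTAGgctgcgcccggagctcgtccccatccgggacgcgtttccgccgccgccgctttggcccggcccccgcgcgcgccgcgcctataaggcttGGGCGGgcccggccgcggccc
KLF4 upstream, chr9:107489770-107490019, minus strand: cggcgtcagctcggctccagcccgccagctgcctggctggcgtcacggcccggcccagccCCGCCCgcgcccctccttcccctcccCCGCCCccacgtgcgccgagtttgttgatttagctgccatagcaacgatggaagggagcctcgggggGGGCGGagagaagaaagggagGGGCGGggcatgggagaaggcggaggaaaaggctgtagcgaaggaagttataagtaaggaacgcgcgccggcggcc
KLF6 upstream, chr10:3785210-3785459, minus strand: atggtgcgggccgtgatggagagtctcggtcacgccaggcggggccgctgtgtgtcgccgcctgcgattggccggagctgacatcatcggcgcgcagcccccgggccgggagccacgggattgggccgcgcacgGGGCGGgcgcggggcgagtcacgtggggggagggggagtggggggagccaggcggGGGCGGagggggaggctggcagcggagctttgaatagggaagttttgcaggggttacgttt
KLF9 upstream, chr9:70414658-70414907, minus strand: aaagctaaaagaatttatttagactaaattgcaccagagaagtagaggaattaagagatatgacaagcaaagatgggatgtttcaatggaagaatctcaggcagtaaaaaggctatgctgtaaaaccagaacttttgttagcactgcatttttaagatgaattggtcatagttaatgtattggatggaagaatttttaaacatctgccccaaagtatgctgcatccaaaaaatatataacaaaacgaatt
KLF13 upstream, chr15:31326585-31326834, plus strand: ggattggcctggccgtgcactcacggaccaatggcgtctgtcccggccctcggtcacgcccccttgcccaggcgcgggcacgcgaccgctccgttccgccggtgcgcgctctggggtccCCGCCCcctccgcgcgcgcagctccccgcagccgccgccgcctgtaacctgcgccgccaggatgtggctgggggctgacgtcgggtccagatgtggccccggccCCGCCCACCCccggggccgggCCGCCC

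The promoters of the family were not of a single class. KLF2, KLF4, KLF6 and KLF13 had GC contents of 80.0%, 69.2%, 72.4% and 78.8%, against a median of 58% over the 35116 windows of the table, while KLF9 had 32.4%, the 3.28th percentile. The KLF2 window held 4 GC boxes and 1 match to the MEF2 consensus, which occurs in 2.80% of all windows. The KLF4, KLF6 and KLF13 windows held 4, 2 and 3 GC boxes, a motif found in 42.6% of all windows, and in KLF13 a GC box shared its last base with a CACCC box, a motif found in 54.7%. The KLF9 window held neither. KLF5, KLF7 and KLF11 have several starts in the table, and KLF3 and KLF10 have no entry. Over all 13 windows of the 8 members in the table, 61.5% held a GC box and 46.2% a CACCC box, which are descriptions of letters and not of binding.

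**Figure D1:**
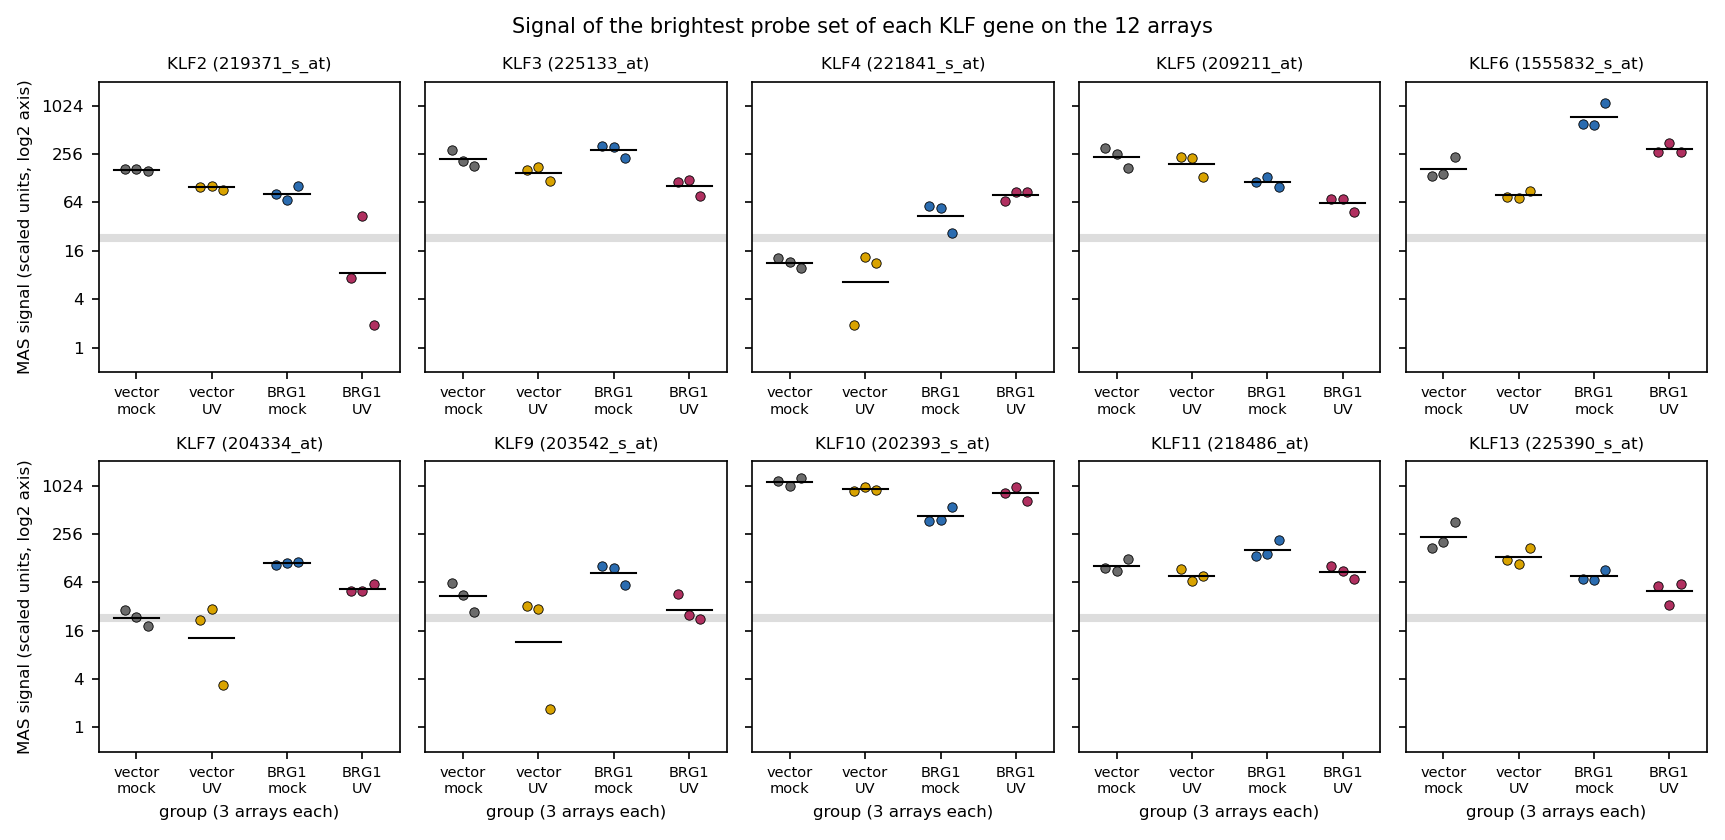
MAS signal (log2 axis) of the brightest probe set of each of the 10 KLF genes on the 12 arrays, by group; each point is 1 array, the line is the mean of the 3 log2 signals, and the grey band spans the array medians, 21.1 to 25.3. KLF6 and KLF7 sit higher on all SW13+BRG1 arrays than on the SW13+vector arrays with the same treatment, KLF5 and KLF13 sit lower, and KLF10 is lowest on the 3 SW13+BRG1 mock arrays.

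The first question was which KLF transcripts differ between cells labelled with BRG1 and cells with the empty vector. KLF6 and KLF7 were higher and KLF5 and KLF13 lower in SW13+BRG1 cells, with and without UV on at least 1 probe set. Without UV, 8 of the 26 KLF probe sets were called higher in SW13+BRG1 cells and 3 lower. Over all tested probe sets 7.69% were higher and 4.30% lower in the same comparison. The 8 higher probe sets belong to only 2 genes, KLF6 and KLF7, so they are not 8 independent measurements. Of them, KLF7 240432_x_at passed the filter through SW13+BRG1 arrays alone. The other KLF7 probe sets among the 8 would not have passed it on their SW13+vector arrays. For all of these KLF7 probe sets a line difference was built into the filter. The 3 lower ones are from KLF5, KLF10 and KLF13. After UV, 7 were higher, from KLF4, KLF6 and KLF7, and 4 were lower, from KLF2, KLF5 and KLF13, beside 7.68% and 5.97% of all tested probe sets. Of the 7, KLF4 221841_s_at had passed the filter through SW13+BRG1 arrays alone, and the KLF7 probe sets would not have passed it without those arrays. The median log2 fold change of the 26 was 0.80 without UV and 0.12 after UV, against -0.0045 and -0.061 over all tested probe sets. The 26 include KLF4 221841_s_at and every KLF7 probe set, which reached the median on fewer than 3 SW13+vector arrays. A positive median was therefore partly built into the filter, and genes with several probe sets count several times. Over the brightest probe set of each KLF gene the medians were 0.51 and -0.017, against 0.0017 and -0.017 over the brightest of all genes. Scaling to hybridization controls turned the balance over the whole array after UV, from 2506 higher and 1949 lower to 2129 and 2652, while the KLF probe sets were then 6 higher and 4 lower.

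**Figure D2:**
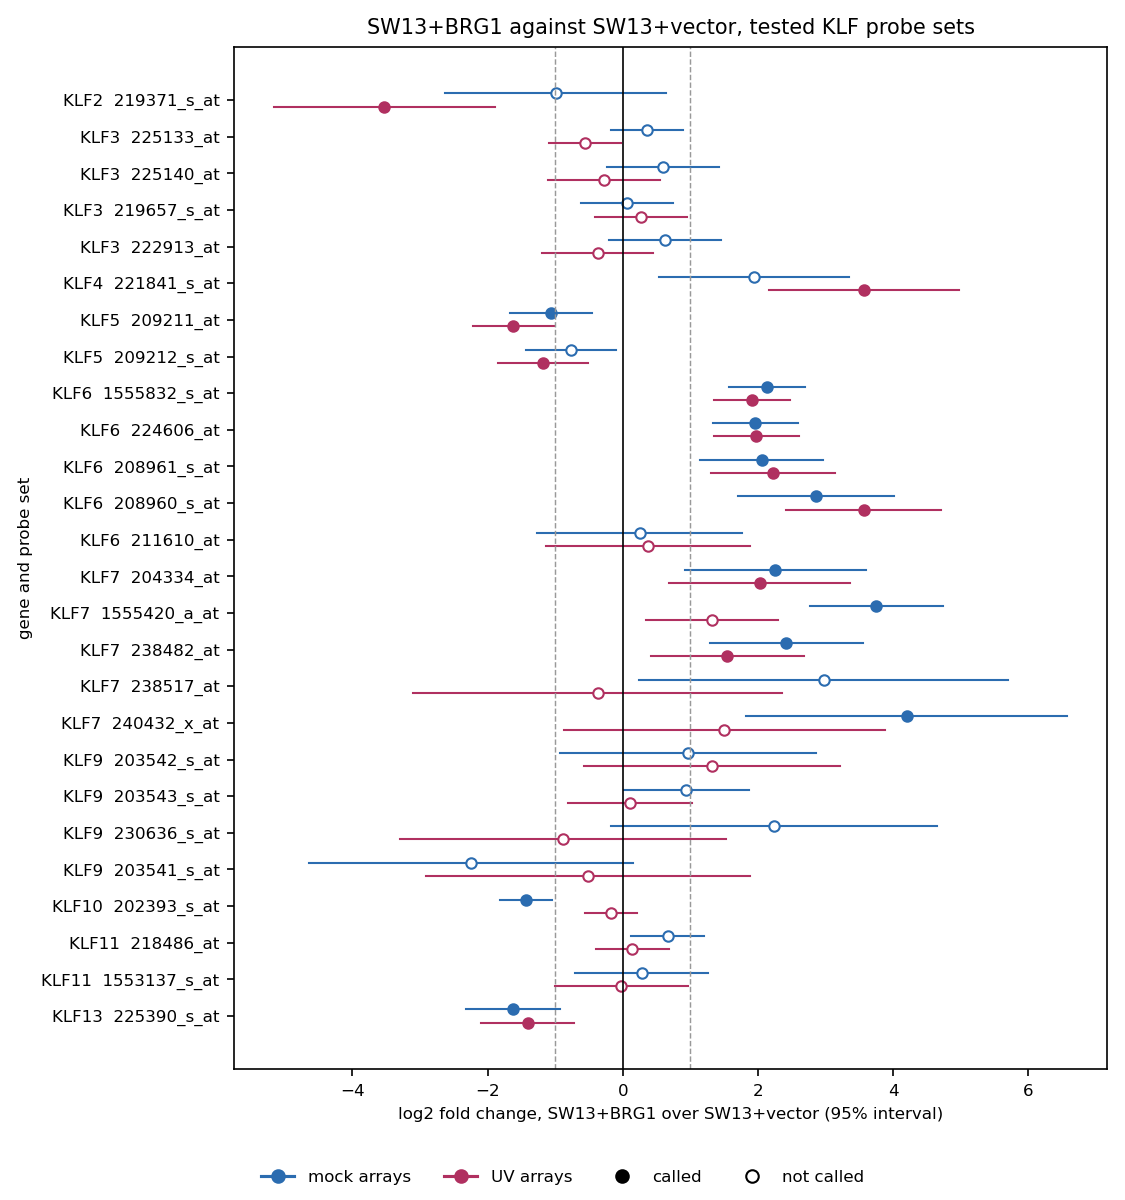
Log2 fold change of SW13+BRG1 over SW13+vector cells for the 26 tested KLF probe sets, on mock arrays (blue) and UV arrays (red), 3 arrays per group; bars are 95% intervals of the limma fit, filled points are called and dashed lines mark a fold change of 2. The first 4 KLF6 probe sets lie right of the dashed line in both conditions, and KLF10 is left of it on mock arrays and near 0 on UV arrays.

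Among the activating members, KLF6 had the steadiest difference between the lines. KLF6 is a broadly expressed factor described as a growth suppressor in several tumor types. Its brightest probe set, 1555832_s_at, gave 137.7, 145.9 and 234.3 on the 3 SW13+vector mock arrays and 613.6, 590.2 and 1099 on the SW13+BRG1 mock arrays. After UV the signals were 74.1, 73.3 and 88.7 with the vector, against 273.7, 349.4 and 268.2 with BRG1. Every SW13+BRG1 array was therefore above every SW13+vector array, including those of the other treatment. The order of the groups was SW13+BRG1 mock, SW13+BRG1 UV, SW13+vector mock and SW13+vector UV, and no neighbours in it overlapped. The line difference was 2.13 (standard error 0.26, adjusted p = 5.5e-05) without UV and 1.91 (standard error 0.26, adjusted p = 0.000125) with UV on the log2 scale, by limma. The probe sets 224606_at, 208961_s_at and 208960_s_at were also higher in both conditions, by 1.96 to 3.56. The fifth, 211610_at, was dim, at 5.11 to 45.8, with overlapping groups and log2 differences of 0.25 and 0.37 that were not called. The largest of these differences, 3.56 for 208960_s_at after UV, was 2.90 without SW13+vector UV replicate 3 and 4.29 without SW13+vector UV replicate 1, since the signal in SW13+vector UV cells ran from 5.61 to 38.4.

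KLF7, a factor best known for axon growth in neurons, was near the array median in SW13+vector cells and clearly above it in SW13+BRG1 mock cells. Its brightest probe set, 204334_at, gave 28.9, 23.5 and 18.2 on SW13+vector mock arrays and 103.9, 112.2 and 115.7 on SW13+BRG1 mock arrays. After UV the signals were 21.9, 29.9 and 3.38 with the vector, against 49.6, 50.0 and 60.4 with BRG1. The 3 BRG1 arrays were above the 3 vector arrays in each condition. The log2 differences were 2.26 (standard error 0.62, adjusted p = 0.0192) and 2.03 (standard error 0.62, adjusted p = 0.0301), by limma. Both calls were narrow: without UV the call was lost when SW13+vector mock replicate 3 or any 1 SW13+BRG1 mock array was left out (adjusted p 0.0517 to 0.0592), and with UV when any 1 SW13+BRG1 UV array was left out (0.0663 to 0.0815). The UV value also rested on SW13+vector UV replicate 3, without which it was 1.05, and on replicate 2 of that group, without which it was 2.62.

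The other KLF7 probe sets gave the same direction without UV but not the same size, and after UV the difference on 1 of them was below 0. On 1555420_a_at, signals of 7.63, 6.39 and 21.7 in SW13+vector mock cells stood against 145.4, 139.0 and 128.1 in SW13+BRG1 mock cells, a log2 difference of 3.75 (standard error 0.45, adjusted p = 5.47e-05, limma). All 3 vector signals were below the array medians, and with signals floored at the 40th percentile of the array the difference was 2.99. After UV the same probe set gave 14.6, 23.8 and 13.6 with the vector, against 36.6, 49.9 and 40.7 with BRG1, and the difference of 1.32 was not called (adjusted p = 0.0507). On 238482_at the difference was 2.42 without UV and 1.54 with UV, the second called at an adjusted p of 0.0485 and under only 8 of 25 alternative settings. On 240432_x_at, whose suffix marks probes that may also bind other transcripts, the mock difference was 4.20, or 2.05 with the floor, and the call was lost without any 1 of the SW13+BRG1 mock arrays (adjusted p 0.0516 to 0.0638). After UV its difference was 1.51, with overlapping arrays, and was not called (adjusted p = 0.377). On 238517_at neither difference was called, and they had opposite signs, 2.97 without UV (adjusted p = 0.125) and -0.37 with UV (adjusted p = 0.874).

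**Figure D3:**
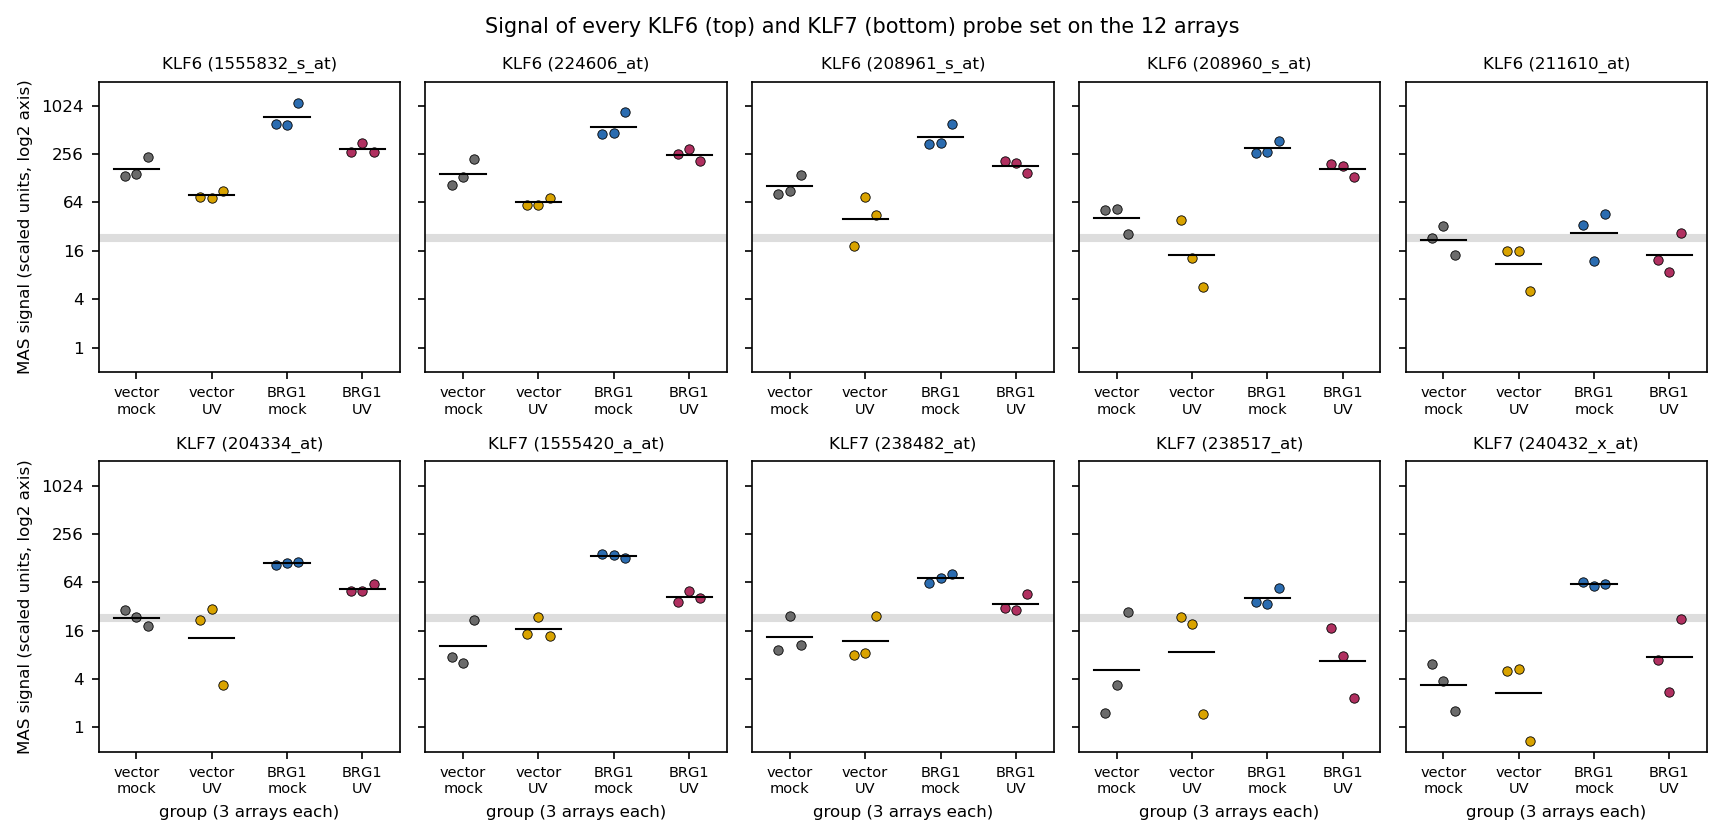
MAS signal (log2 axis) of all 5 KLF6 probe sets (top) and all 5 KLF7 probe sets (bottom) on the 12 arrays, by group; points are arrays, lines are means of log2 signals and the grey band spans the array medians. On 4 of the 5 KLF6 probe sets all SW13+BRG1 arrays lie above the SW13+vector arrays of the same treatment. On the first 3 KLF7 probe sets the SW13+BRG1 mock arrays are highest, at 62.2 to 145.4, and the SW13+BRG1 UV arrays, at 29.3 to 60.4, lie between them and the vector arrays.

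KLF5, which promotes proliferation in epithelial cells, was lower in SW13+BRG1 cells. Its brightest probe set, 209211_at, gave 305.7, 258.7 and 170.2 on SW13+vector mock arrays and 115.2, 131.9 and 98.7 on SW13+BRG1 mock arrays. After UV it gave 236.3, 226.4 and 131.2 with the vector, against 70.9, 69.8 and 49.2 with BRG1. The vector and BRG1 arrays did not overlap within either condition, whereas the mock and UV arrays of the vector line did. The log2 difference was -1.06 (standard error 0.28, adjusted p = 0.0158) without UV and -1.62 (standard error 0.28, adjusted p = 0.000871) with UV, by limma. The mock call was lost without SW13+vector mock replicate 1, without replicate 2 of that group or without SW13+BRG1 mock replicate 3 (adjusted p 0.0540 to 0.0760). The second probe set, 209212_s_at, differed by -0.77 without UV, which was not called (adjusted p = 0.105), and by -1.17 with UV (adjusted p = 0.0137), a call lost without SW13+vector UV replicate 1 or SW13+BRG1 UV replicate 3.

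KLF2 and KLF4, a pair known from endothelial cells as partly interchangeable activators, went opposite ways between the lines after UV. KLF2, read by 219371_s_at, gave 167.6, 168.1 and 156.5 in SW13+vector mock cells and 100.3, 104.0 and 91.2 after UV. In SW13+BRG1 cells it gave 80.8, 68.2 and 102.1 without UV and 7.46, 43.1 and 1.93 after UV. SW13+vector mock arrays were the highest and SW13+BRG1 UV arrays the lowest, while SW13+vector UV and SW13+BRG1 mock arrays overlapped. The line difference was called after UV, at -3.53 (standard error 0.76, adjusted p = 0.00390, limma), but not without UV, at -0.99 (standard error 0.76, adjusted p = 0.433). Since 2 of the 3 SW13+BRG1 UV signals were far below the array medians, the size depends on how low signals are treated: it was -2.24 with the floor, -4.70 without SW13+BRG1 UV replicate 2 and -2.46 without replicate 3, and the call held in each.

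KLF4, one of the factors used to reprogram cells to pluripotency, was dim in SW13+vector cells. Its probe set 221841_s_at gave 12.9, 11.7 and 9.88 in SW13+vector mock cells and 1.93, 13.3 and 11.4 after UV, all below the array medians. In SW13+BRG1 cells it gave 58.2, 55.3 and 26.5 without UV and 67.0, 85.4 and 86.4 after UV, all above the medians, so the probe set was tested only because its signal was high in that line. The difference between the lines after UV was 3.57 (standard error 0.65, adjusted p = 0.00129, limma), 2.40 with the floor, and 2.68 without SW13+vector UV replicate 1. Without UV it was 1.94 (standard error 0.65) and missed the threshold at an adjusted p of 0.0510, though 10 of 26 alternative settings called it, among them leaving out SW13+BRG1 mock replicate 3 or any 1 SW13+vector UV array. The 3 SW13+BRG1 mock arrays were nevertheless above all 3 SW13+vector mock arrays.

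Of the repressing members, KLF13 was lower in SW13+BRG1 cells in both conditions. KLF13 is known for its part in lymphocyte gene expression. Its only tested probe set, 225390_s_at, gave 171.6, 203.7 and 364.4 in SW13+vector mock cells against 69.6, 67.8 and 92.3 in SW13+BRG1 mock cells. After UV it gave 122.0, 107.7 and 168.6 against 57.6, 33.5 and 61.7. The lines did not overlap in either condition. The log2 differences were -1.62 (standard error 0.32, adjusted p = 0.00249) and -1.41 (standard error 0.32, adjusted p = 0.00570), by limma, and leaving out any 1 array ended neither call. The other 3 KLF13 probe sets, at 1.07 to 26.3, were not tested.

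KLF10, known as TGF-β inducible early gene 1, was called lower in SW13+BRG1 cells without UV and had no line call after UV. Its single probe set, 202393_s_at, gave 1163, 1009 and 1284 on SW13+vector mock arrays and 368.2, 380.7 and 551.3 on SW13+BRG1 mock arrays, a log2 difference of -1.43 (standard error 0.18, adjusted p = 7.03e-05, limma). After UV it gave 864.4, 995.6 and 911.9 with the vector, against 830.4, 990.7 and 664.4 with BRG1, and these overlapped, with a difference of -0.17 (standard error 0.18, adjusted p = 0.546, 95% interval -0.56 to 0.21). The SW13+BRG1 mock arrays were thus below the other 9 arrays, which lay between 664.4 and 1284.

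KLF3, KLF9 and KLF11 had no called difference between the lines on any probe set. KLF11, known as TGF-β inducible early gene 2, differed by 0.66 (standard error 0.25, adjusted p = 0.0809) without UV and by 0.14 with UV on 218486_at. KLF3, a CtBP-binding repressor of blood and fat cell lineages, differed by 0.36 and -0.56 on 225133_at, with overlapping arrays. KLF9, which glucocorticoid and thyroid hormone receptors induce, differed by 0.96 and 1.32 on its brightest probe set 203542_s_at, with a standard error of 0.88 and 95% intervals that ran from -0.93 to 2.86 and from -0.57 to 3.21. These intervals still hold differences of over 2-fold for KLF9, so no difference was detectable at the spread of this probe set. The other tested KLF9 probe sets disagreed in direction without UV, and on each the lines did not overlap. The difference was 0.94 (standard error 0.43, 95% interval 0.020 to 1.86, adjusted p = 0.152, limma) on 203543_s_at. It was 2.24 (adjusted p = 0.196) on 230636_s_at and -2.24 (adjusted p = 0.194) on 203541_s_at.

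The second question was which KLF transcripts changed 6 h after UV in each line. The called KLF probe sets fell in both lines, and none rose. In SW13+vector cells 2 of 26 fell, both of KLF6, and 0 rose, beside 3.60% of all tested probe sets that fell and 0.665% that rose. In SW13+BRG1 cells 6 fell and 0 rose, beside 5.81% and 0.561%. These 6 are from 5 genes, KLF2, KLF3, KLF6, KLF7 and KLF9. Among probe sets with a positive change, 0 had an unadjusted limma p under 0.05 in the vector line and 1, of KLF10, did in the BRG1 line. Without the arrays of experiment 3, a fit added after the data had been seen, 1 probe set rose in each line, KLF7 238517_at in SW13+vector and KLF10 (1.28) in SW13+BRG1. The median log2 change of the 26 was -0.65 in the vector line and -1.03 in the BRG1 line, against -0.010 and -0.057 over all tested probe sets, and 23 of the 26 were below 0 in each line, against 50.7% and 53.7% of all. Genes with several probe sets count several times here, so the 26 are not independent measurements. KLF7 238517_at and KLF9 203543_s_at passed the filter on mock arrays alone, so a fall was partly built in. The KLF9 probe set is among the 6 that fell. Over the brightest probe set of each KLF gene the medians were -0.76 and -0.99, against 0.027 and 0.032 over the brightest of all genes. Scaling the arrays to hybridization controls moved the median of all probe sets to -0.27 and -0.45. That scaling shifts all probe sets of an array alike. The KLF median minus the median of all therefore could not move, and it stayed at -0.64 in the vector line and -0.97 in the BRG1 line. With quantile normalization, which can move it, it was -0.51 and -0.89.

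**Figure D4:**
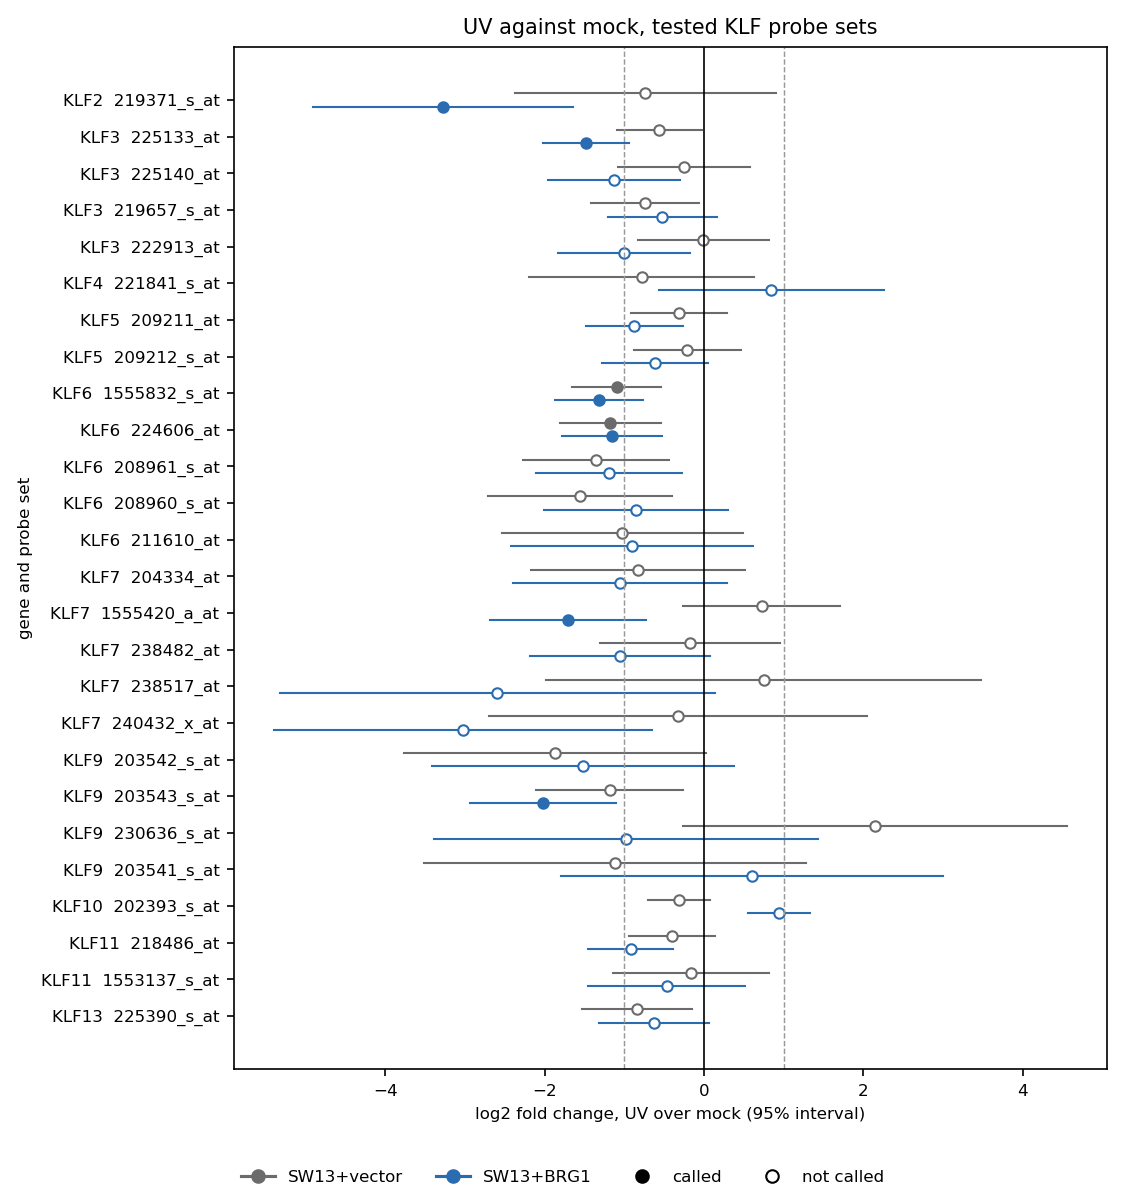
Log2 fold change of UV over mock for the 26 tested KLF probe sets in SW13+vector (grey) and SW13+BRG1 cells (blue), 3 arrays per group; bars are 95% intervals of the limma fit, filled points are called and dashed lines mark a fold change of 2. Nearly all points lie left of 0, 2 are filled in SW13+vector and 6 in SW13+BRG1 cells, and KLF10 in SW13+BRG1 cells lies right of 0 at 0.94.

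KLF6 fell after UV in both lines on 2 of its 5 probe sets. On 1555832_s_at the signals given above fell by 1.10 log2 units (standard error 0.26, adjusted p = 0.0181, limma) in SW13+vector cells and by 1.32 (adjusted p = 0.00420) in SW13+BRG1 cells, and mock and UV arrays did not overlap in either line. On 224606_at the signals were 104.4, 132.3 and 220.4 before and 60.2, 60.1 and 73.2 after UV in SW13+vector cells, and 450.9, 468.7 and 845.5 before and 259.0, 296.4 and 208.6 after UV with BRG1. These fell by 1.17 and 1.16. The other 3 probe sets also had changes below 0, but none was called in either line. On 208961_s_at the changes were -1.36 (adjusted p = 0.0630) with the vector and -1.19 (adjusted p = 0.0830) with BRG1, and on 208960_s_at they were -1.55 (adjusted p = 0.0904) and -0.85 (adjusted p = 0.358). On 211610_at they were -1.03 and -0.90. On the called probe sets, 1555832_s_at and 224606_at, mock replicate 3 was the brightest mock array in both lines. Without SW13+vector mock replicate 3 their vector changes were -0.85 and -0.87 and no longer called. Without all 4 arrays of experiment 3 the 4 changes were -0.73 to -0.97, which is under 2-fold. Leaving out SW13+vector UV replicate 1 or 2 also ended the vector call on both probe sets (adjusted p 0.0596 to 0.0751). On 224606_at, the vector call was also lost without SW13+vector mock replicate 2, and the SW13+BRG1 call without mock replicate 3 (-0.87) or UV replicate 3 of that line. The UV effects of the lines differed by -0.22 (95% interval -1.01 to 0.57) on 1555832_s_at.

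KLF2 fell after UV in SW13+BRG1 cells by 3.28 log2 units (standard error 0.76, adjusted p = 0.0110, limma), from 68.2 to 102.1 down to 1.93 to 43.1. The size was -1.99 with the floor, -4.44 without SW13+BRG1 UV replicate 2 and -2.20 without replicate 3, and the call was lost in a fit of the compared arrays alone (adjusted p = 0.0526). In SW13+vector cells the change was -0.74 (standard error 0.76, adjusted p = 0.630), although no UV array overlapped a mock array. The difference between these 2 changes was -2.54 (standard error 1.07), with an adjusted p of 0.964 in the interaction test, so the UV effect on KLF2 was not shown to differ between the lines.

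KLF3, KLF7 and KLF9 also fell in SW13+BRG1 cells, each on 1 probe set. KLF3 225133_at gave 323.5, 314.3 and 227.4 on mock arrays and 115.5, 120.3 and 76.5 after UV, a change of -1.48 (standard error 0.25, adjusted p = 0.00161, limma). In SW13+vector cells it went from 283.9, 212.2 and 179.9 to 160.5, 178.0 and 118.2, a change of -0.56 that was not called (adjusted p = 0.191). The other 3 KLF3 probe sets changed by -1.13, -0.52 and -1.01 in SW13+BRG1 cells and were not called. KLF7 1555420_a_at fell by 1.71 (standard error 0.45, adjusted p = 0.0235) in SW13+BRG1 cells, on the signals given above. The 3 mock arrays were all above the 3 UV arrays, yet the call was lost without any 1 of the mock arrays or without UV replicate 1 or 3 (adjusted p 0.0530 to 0.0923). The brightest KLF7 probe set changed by -1.06 (adjusted p = 0.320) and was not called. KLF9 203543_s_at gave 81.5, 81.2 and 46.2 on mock arrays and 22.2, 21.2 and 9.74 after UV in SW13+BRG1 cells, a change of -2.02 (standard error 0.43, adjusted p = 0.00656). All its UV signals in both lines were below the array medians, so it was tested only because its mock signals were higher, and with the floor the change was -1.87. In SW13+vector cells it went from 38.6, 28.6 and 39.1 to 13.5, 18.6 and 14.6, a change of -1.19 that was not called (adjusted p = 0.105). The brightest KLF9 probe set, 203542_s_at, changed by -1.52 and -1.87 in SW13+BRG1 and SW13+vector cells with a standard error of 0.88, and neither was called. The other 2 tested KLF9 probe sets, 230636_s_at and 203541_s_at, ran from 0.63 to 30.4 on all arrays and had no call in any comparison.

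KLF10 and KLF11 changed after UV in SW13+BRG1 cells with adjusted p-values under 0.05 but by less than 2-fold. KLF10 had higher signals on all 3 UV arrays than on all 3 mock arrays, with a log2 change of 0.94 (standard error 0.18, adjusted p = 0.00346, limma). It passed the fold threshold when SW13+BRG1 mock replicate 3, or UV replicate 3 of that line, was left out. In SW13+vector cells the KLF10 change was -0.31 (standard error 0.18, adjusted p = 0.325), with all 3 UV arrays below all 3 mock arrays. KLF11 218486_at changed by -0.92 (standard error 0.25, adjusted p = 0.0256), from 137.4, 143.9 and 216.2 to 101.7, 88.6 and 69.7, and by -0.40 in SW13+vector cells, where mock and UV arrays overlapped. The second KLF11 probe set, 1553137_s_at, at 15.4 to 47.0, overlapped between all groups compared and had no call. KLF4, KLF5 and KLF13 had no UV call in either line. KLF4 changed by 0.85 in SW13+BRG1 cells and by -0.78 in SW13+vector cells, with standard errors of 0.65.

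No KLF probe set passed the test of a different UV effect between the lines. With limma's interaction test 0 of 26 were called, beside 0.0123% of all tested probe sets called with a higher and 0.0368% with a lower UV effect in SW13+BRG1 cells. At an unadjusted p under 0.05 there were 4 KLF probe sets, and 4.91% of all tested probe sets passed that level. The 4 were KLF10 (1.25, standard error 0.25, adjusted p = 0.206), KLF7 1555420_a_at (-2.43, standard error 0.64, adjusted p = 0.558), KLF3 225133_at (-0.92, standard error 0.35, adjusted p = 0.887) and KLF2 219371_s_at (-2.54, given above). For KLF6 224606_at the UV effects of the lines differed by 0.014 (95% interval -0.87 to 0.90).

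Genes whose group means followed those of a KLF most closely were named by the smallest root mean square difference between the 4 centred group means of log2 signal, over the 4 groups. For KLF6 these were FZD2, a Wnt receptor (0.019), SPATA7 (0.123) and MLLT3 (0.130). FZD2 had mean signals of 112.4, 50.1, 485.7 and 189.7 in SW13+vector mock, SW13+vector UV, SW13+BRG1 mock and SW13+BRG1 UV cells. For KLF4 they were GIRGL (0.057), PDGFRA, a receptor for platelet-derived growth factor (0.084), and RASA3 (0.173), and for KLF2 they were USP51 (0.127), FGD4 (0.283) and TICRR (0.308). PDGFRA was near or below the array medians in all groups, with means of 2.50 to 23.0. The means of USP51, FGD4 and TICRR in SW13+BRG1 UV cells, 8.89, 5.17 and 14.1, were also below the medians. No test belongs to this ranking.

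The rest of the family and the partners of these factors were read on the brightest probe set of each gene. Of 8 other KLF genes 7 were on the array and 4 were tested, and KLF12, a CtBP-binding repressor, was the only one called, falling by 1.45 (standard error 0.23, adjusted p = 0.00125, limma) after UV in SW13+BRG1 cells. It went from 114.6 to 137.2 on mock arrays down to 35.2 to 60.2. Of the related SP factors 4 were tested, and SP1 alone was called, falling by 1.17 in SW13+BRG1 cells, from a mean of 466.8 ± 90.9 (SD, n = 3) to 205.0 ± 11.9. Of 9 cofactors of KLF proteins, all tested, HDAC2, a histone deacetylase of the SIN3 complex, was lower in SW13+BRG1 cells by 1.05 and 1.08 log2 units without and with UV. The acetyltransferases EP300 and CREBBP fell after UV in both lines, by 1.35 and 1.16 with the vector and by 1.20 each in SW13+BRG1 cells. SIN3A itself fell by 1.00 in SW13+BRG1 cells. Falls were thus called for 2 of the 9 cofactors in the vector line and for 3 of 9 in the BRG1 line. The shares over all tested probe sets were 3.60% and 5.81%. The other KLF genes and the SP factors each had 1 of 4 falling, in the BRG1 line alone, beside the same 5.81%. For the 1 of 9 cofactors lower between the lines, the shares were 4.30% without UV and 5.97% with UV.

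The 5 ubiquitin ligases described for KLF proteins were all tested, and none was called between the lines. After UV 3 of the 5 fell in SW13+vector cells and 5 of 5 in SW13+BRG1 cells, beside 3.60% and 5.81% of all tested probe sets, with median changes of -1.01 and -1.66. SMURF1 fell most, from a mean of 188.3 ± 45.9 (SD, n = 3) to 52.8 ± 7.47 in the vector line, while in the BRG1 line it went from 191.8 ± 55.6 to 29.1 ± 10.2, log2 changes of -1.82 and -2.75. FBXW7, a subunit of an SCF ligase whose signal reached the array median on mock arrays alone, fell by 1.69 and 2.39, and BTRC by 1.01 and 1.66. WWP1 and SIAH1 fell in SW13+BRG1 cells by 1.24 and 1.08. For none of the 5 was the difference of UV effects between the lines called.

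The pathways that induce KLF genes were measured as well. Of the ERK5 and MEF2 genes 4 were tested and none was called in any comparison. Of 8 TGF-β and SMAD genes, all tested, 3 were higher and 1 lower in SW13+BRG1 mock cells, and 2 were higher and 1 lower after UV. The shares of all tested probe sets were 7.69% and 4.30% without UV and 7.68% and 5.97% after UV. The receptor TGFBR2 had a mean of 36.4 ± 14.0 (SD, n = 3) in SW13+vector mock cells and 224.1 ± 38.9 in SW13+BRG1 mock cells, a log2 difference of 2.70. SMAD3, which carries the signal to the nucleus, was higher by 2.02 and 1.68 without and with UV. The inhibitor SMAD7 was higher by 1.65 without UV, and the ligand TGFB2 was lower by 1.91 and 1.74. After UV, TGFBR2 and SMAD7 each fell by 1.56 in SW13+BRG1 cells.

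Of 13 genes described elsewhere as targets of KLF proteins, 12 were on the array and 9 were tested. In SW13+BRG1 mock cells 4 were higher and 1 was lower, beside 7.69% and 4.30% of all tested probe sets. PLAU, the urokinase protease, ran from 4.38 to 27.5 on SW13+vector mock arrays, with 1 of the 3 at or above the array median, and from 404.4 to 629.0 on SW13+BRG1 mock arrays. It reached the median on fewer than 3 SW13+vector arrays, so it was tested only because its signal was high in SW13+BRG1 cells. Its log2 difference was 5.78 (standard error 0.61), or 4.81 with the floor, and that of LGALS3, a galectin, was 2.53. THBD, the thrombomodulin that KLF2 and KLF4 induce in endothelium, was higher by 1.81 without UV and by 1.65 with UV, but it reached the array median on SW13+BRG1 arrays alone, so this difference was built into its being tested. Its mean signal in SW13+vector mock cells was 14.5 ± 1.16 (SD, n = 3), and with the floor the differences were 1.73 and 1.28. S1PR1, a lipid receptor that KLF2 induces in lymphocytes, was lower by 3.58 without UV and by 3.12 with UV. Its mean signal was 889.5 ± 223.5 in SW13+vector mock and 73.5 ± 11.9 in SW13+BRG1 mock cells. After UV 0 of the 9 were called in SW13+vector cells by limma, beside 0.665% of all tested probe sets that rose and 3.60% that fell. There 3, CDKN1A, S1PR1 and SMAD7, had an unadjusted limma p under 0.05, as had 23.3% of all tested probe sets. In SW13+BRG1 cells 1 of the 9 rose and 2 fell, beside 0.561% and 5.81%. CDKN1A rose by 1.57 in SW13+BRG1 cells, from 114.3 ± 49.2 to 321.0 ± 62.0, and was then higher than in SW13+vector UV cells by 1.42. With the vector it went from 57.9 ± 17.8 to 121.9 ± 35.8 without overlap, a change of 1.07 that was not called (adjusted p = 0.0642). The difference between these UV effects was 0.50 (95% interval -0.53 to 1.52, adjusted p = 1.00, limma). PDGFA, a platelet-derived growth factor chain, fell by 1.19 in SW13+BRG1 cells, from 115.1 ± 8.07 to 53.1 ± 19.4, and the other gene that fell was SMAD7, which is in both lists. These are transcript levels beside each other, and whether any KLF protein acted on these genes was not tested.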

How the data were processed

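RNA of SW13 cells was hybridized by the authors to U133 Plus 2.0 arrays. The deposited values are linear signal intensities, computed by the authors with the default settings of MAS (version not given in the sources used here) and brought to a common array mean, with a trimmed mean of 125.0 on each array. Signals were taken to log2 without further normalization. Control probe sets and those at or above the array median on fewer than 3 of 12 arrays were left out, leaving 32622. The linear model of limma 3.58.1 in R 4.3.3 had a mean for each of the 4 groups, used all 12 arrays, and let the prior variance depend on signal. Adjusted p-values are Benjamini-Hochberg values over these. The brightest probe set of a gene has the highest mean log2 signal over all arrays. Symbols come from the platform annotation, updated through gene identifiers: 41097 probe sets had 1 gene, 1801 several and 11777 none. All members are named by their brightest probe set and any other that disagrees in a call, and up to 4 called genes with the largest change from each other list. Members and lists were chosen with earlier results of these data known. The scripts were tested on simulated data. Alternatives were other filters, scalings, treatments of low signals and fits, the methods' Welch test, and leaving out each array. Precision is limited by 3 arrays per group. A fit without experiment 3 was added after the data had been seen.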

Additional observations from a re-analysis of the deposited data

Results flagged for a closer look

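KLF10 was the only member whose UV arrays lay on opposite sides of the mock arrays in the 2 lines. All 3 UV arrays were below all 3 mock arrays in SW13+vector cells, and all 3 were above them in SW13+BRG1 cells. The UV effects, -0.31 and 0.94 on the log2 scale, differed by 1.25 (standard error 0.25, 95% interval 0.71 to 1.80). In limma's interaction test the unadjusted p was 0.000248 and the adjusted p 0.206, so the difference did not pass over all tested probe sets. It passed without SW13+BRG1 mock replicate 3 and, in a fit added after the data had been seen, without the arrays of experiment 3.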

How the results depend on the processing

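No called KLF value changed direction under any alternative. Of 30 called values, 2 were called under every alternative, the line difference of KLF6 1555832_s_at and 224606_at after UV, and 26 of 100 uncalled values were called under at least 1. The counts of called KLF probe sets moved by over 1.5 times as follows, and the cause was not tested except where fewer probe sets were tested. The line counts of 11 without UV and 11 after UV became 5 and 5 with the array median required on all 12 arrays and 6 and 6 over the brightest probe set of each gene, which both test fewer probe sets. With the methods' Welch test at an unadjusted p the second was 7, and with that test after Benjamini-Hochberg they were 0 and 2. The UV count of 2 in SW13+vector cells became 0 with quantile normalization, with a prior without trend and with the adjusted Welch test, 1 with log2 of the signal plus 16, with the compared arrays alone and over brightest probe sets, and 5 with scaling to hybridization controls. The UV count of 6 in SW13+BRG1 cells became 14 with hybridization controls, 11 with the floor, 10 with the compared arrays alone, 3 over brightest probe sets and 0 with the adjusted Welch test. The interaction count of 0 became 1, KLF10, without the arrays of experiment 3, and was not computed with the Welch test or the compared arrays alone. Leaving out 1 array in turn gave 9 to 12, 8 to 12, 0 to 2, 5 to 9 and 0 to 1 calls in these 5 comparisons. With the experiment number as a replicate block the counts were 12, 12, 4, 8 and 0. The numbers were not used as pairs in the main fit. Deviations of same-numbered arrays from their group means correlated at 0.015 to 0.293, those of other numbers at -0.223 to 0.137, and 8 of 12 arrays correlated best with their own number. Arrays of experiment 3 did share a deviation. They correlated with each other at 0.179 to 0.293, and with arrays of experiments 1 and 2 at -0.223 to -0.056. Deviations from the mean of 3 arrays sum to 0. The negative values therefore follow in sum from the positive ones and are not separate evidence. Experiments 1 and 2 did not separate from each other in this way. What the numbers mark is not stated in the labels. Over the whole array, hybridization controls changed the UV calls from 217 higher and 1175 lower to 119 and 2264 in SW13+vector cells, and from 183 and 1895 to 85 and 4330 in SW13+BRG1 cells. Quantile normalization gave 296 higher and 1246 lower UV calls in SW13+BRG1 cells. With the adjusted Welch test the calls over the array were 823, 1146, 6 and 92 in the line and UV comparisons, against 3912, 4455, 1392 and 2078. The interaction calls, 4 higher and 12 lower, became 16 and 53 with the block and 40 and 125 without experiment 3. Signals near the array median, as for KLF2, KLF4, KLF7 and KLF9, limit the size of their fold changes.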
